A study of Drosophila melanogaster with 72 samples.

Results

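Heart and head transcriptomes of 5-week-old male fruit flies were compared in 6 heart and 6 head libraries out of 72 in the series. Each heart library was paired with the head library of the same feeding type and Zeitgeber time (ZT, hours after lights on), at ZT00, ZT12 and ZT18. All flies were wild-type Oregon R males kept at 25 °C, either fed ad libitum (ALF) or under time-restricted feeding (TRF), in which the food was alternated with a medium of agar and water. Every combination of tissue, feeding type and ZT had 1 library, so each tissue had 3 ALF and 3 TRF libraries and the spread within a tissue includes feeding and time of day. ZT06 was left out because ninaE, the rhodopsin of the outer photoreceptors, was 0.43 FPKM (ALF) and 0.443 FPKM (TRF) in the head libraries of that time. The labels do not say how hearts were dissected, how many flies went into a library, or whether the libraries came from separate groups of flies, so p-values measure the spread between these libraries.

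The adult fly heart is a muscular tube under the dorsal cuticle of the abdomen. Its contractile cardiomyocytes are laid down in the embryo under the transcription factors tinman (tin) and Hand, and it is lined by pericardial nephrocytes, which filter the hemolymph. Hemocytes collect on it, and sheets of fat body and oenocytes lie close by. The head holds the brain, the compound eyes, antennae, mouthparts, cuticle and its own fat body, so the comparison sets a mesodermal pump against a sample rich in neurons and photoreceptors.

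Levels are FPKM, fragments scaled by transcript length and library size, for the transcript of each gene with the highest mean. Differences are means over the 6 pairs of log2(FPKM + 1) in heart minus head, with their standard error (SE), and they understate the change of genes near 0 FPKM. Recovered read totals were 7.78 to 22.9 M reads in heart and 9.11 to 15.5 M in head. After genes averaging under 1 FPKM were removed, 10516 remained, of which 8150 passed limma's moderated test at an adjusted p of 0.05, which is 77.5%. A gene near 0 FPKM in one tissue could pass this filter only through the other, which largely fixed its direction. Of all genes tested, 24.2% were called higher in heart (2548) and 53.3% lower (5602). With a difference of at least 1 on the log2 scale, 13.2% were higher (1392) and 30.2% lower (3177). FPKM are shares of a library, and the median difference of all genes was -0.41. After rescaling by the median of ratios the median was 0.07, and 39.8% of 10571 genes were higher (4210) and 36.6% lower (3866). All 2548 genes called higher stayed higher after rescaling, while 1640 of those called lower lost the call and 96 turned higher. Libraries of heart correlated with each other at r of 0.906 to 0.982 over these genes, libraries of head at 0.972 to 0.989, and heart with head at 0.631 to 0.727.

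Some heart libraries stood apart, and levels of transcripts of other abdominal organs also differed between heart libraries. In heart ALF ZT18, 527 genes were more than 1 log2 unit above each of the other heart libraries, against 251 in ALF ZT00 and 4 to 65 in the other 4. In heart TRF ZT00, 132 genes were more than 1 log2 unit below each of the others, against 2 to 8 in the rest. The summed level of 19 testis markers was 707 FPKM in heart ALF ZT18 and 87.9 to 229 FPKM in the other heart libraries, against 18.8 to 25.0 FPKM in head. The summed level of 14 accessory gland markers was 561 FPKM in heart TRF ZT12 and 72.4 to 154 FPKM in the others, against 2.45 to 5.93 FPKM in head. Uro, the urate oxidase of Malpighian tubules, was 162 FPKM in heart ALF ZT00 and 101 FPKM in heart TRF ZT12, and 0.322 to 1.35 FPKM in the other heart libraries. Of 4 tubule markers tested 1 was called higher and 1 lower, and Uro was not called (adjusted p = 0.0618). With single pairs left out, 0 to 2 tubule markers were called higher and 1 to 2 lower. So heart ALF ZT00 and TRF ZT12 carried the tubule transcript Uro, ALF ZT18 the most testis transcripts and TRF ZT12 the most accessory gland transcripts. Without ALF ZT18, 2160 of 10267 genes tested were called higher in heart and 5413 lower.

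**Figure D1:**
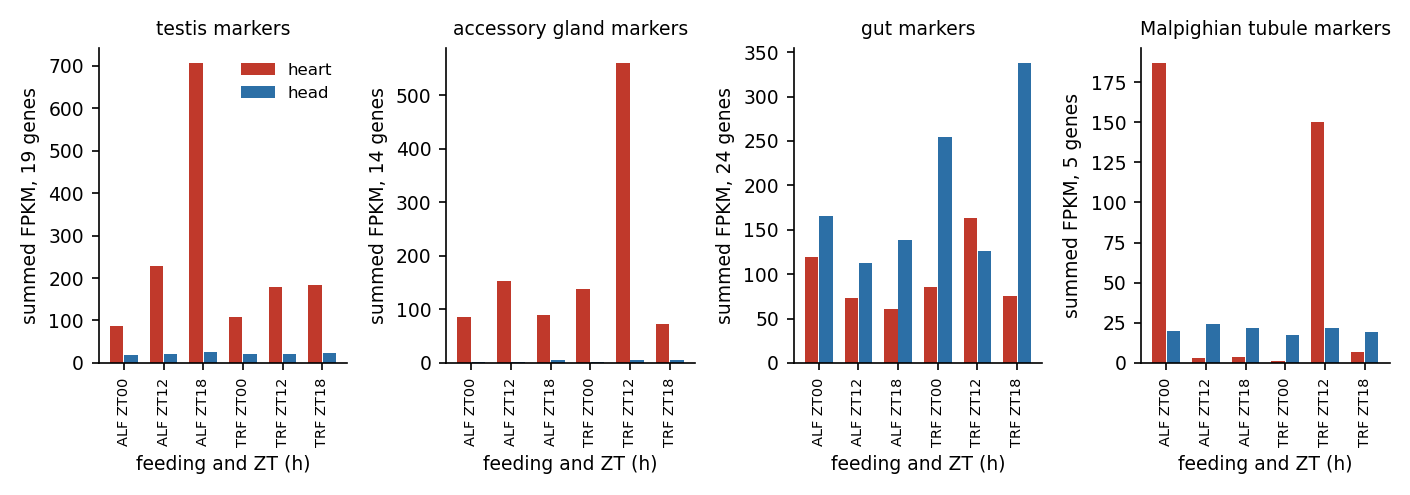
Summed FPKM of the marker genes of testis, accessory gland, gut and Malpighian tubule, one bar for each of the 6 heart (red) and 6 head (blue) libraries. Testis markers peak at 707 FPKM in heart ALF ZT18, accessory gland markers at 561 FPKM in heart TRF ZT12, and tubule markers at 187 FPKM in heart ALF ZT00 and 150 FPKM in heart TRF ZT12.

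Hand separated the tissues without overlap, and ninaE is given as a description, since head libraries without it had been left out. Hand (CG18144), a basic helix-loop-helix factor of heart cells, lies on arm 2L at 10292781 to 10295299 (dm3, minus strand). It was 721 to 1779 FPKM in heart with a median of 874 FPKM, and 0 to 0.622 FPKM in head with a median of 0.278 FPKM. TRF ZT00 was the highest heart library. The difference was 9.55 ± 0.14 (SE, 6 pairs, adjusted p = 4.76e-09). Hand was under 1 FPKM in every head library, so it passed the filter on low values only through heart. ninaE (CG4550), on arm 3R at 15711968 to 15713928 (minus strand), was 17812 to 20775 FPKM in head with a median of 19011 FPKM. In heart it was 41.5 to 86.3 FPKM with a median of 57.0 FPKM, highest in ALF ZT00, a difference of -8.36. The periphery libraries of the same week and times, made from the body without the head, had 6.40 to 13.1 FPKM of Hand and 0 to 0.254 FPKM of ninaE. A low level of eye transcripts was thus present in all 6 heart libraries and near 0 in the periphery libraries.

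The tested Hox genes, which give segments their identity along the body axis, differed by the body region they are known for. Of 8 Hox genes, 5 passed the filter on low values. Ubx and abd-A passed it only through heart and Dfd only through head. That these were called was thus largely fixed by the filter. Ubx, a gene of the posterior thorax and anterior abdomen, was 8.07 to 9.58 FPKM in heart and 0 to 0.082 FPKM in head (difference 3.19 ± 0.10, adjusted p = 6.37e-08). abd-A, an abdominal gene that is known to specify the chambered part of the fly heart, was 3.70 to 6.73 FPKM in heart and 0.021 to 0.156 FPKM in head (2.51 ± 0.15, adjusted p = 1.8e-06). The head genes went the other way. Dfd, which specifies the maxillary and mandibular segments, was 14.6 to 17.9 FPKM in head and 0.037 to 0.330 FPKM in heart (-3.89 ± 0.10, adjusted p = 2.88e-08). pb (-1.54 ± 0.16) and Scr (-2.20 ± 0.15), genes of the mouthpart and first thoracic segments, were called lower in heart as well. The 8 Hox genes summed to 13.5 to 18.7 FPKM in heart, most of it Ubx and abd-A. The filter may thus have fixed the direction of pb and Scr too, and the pattern is a description. The other Hox genes were too low to be tested. lab was 0.036 to 0.693 FPKM in heart and 1.15 to 1.86 FPKM in head, Antp 0.550 to 1.51 and 0.645 to 1.01 FPKM, and Abd-B 0.140 to 1.74 and 0 to 0.081 FPKM.

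**Figure D2:**
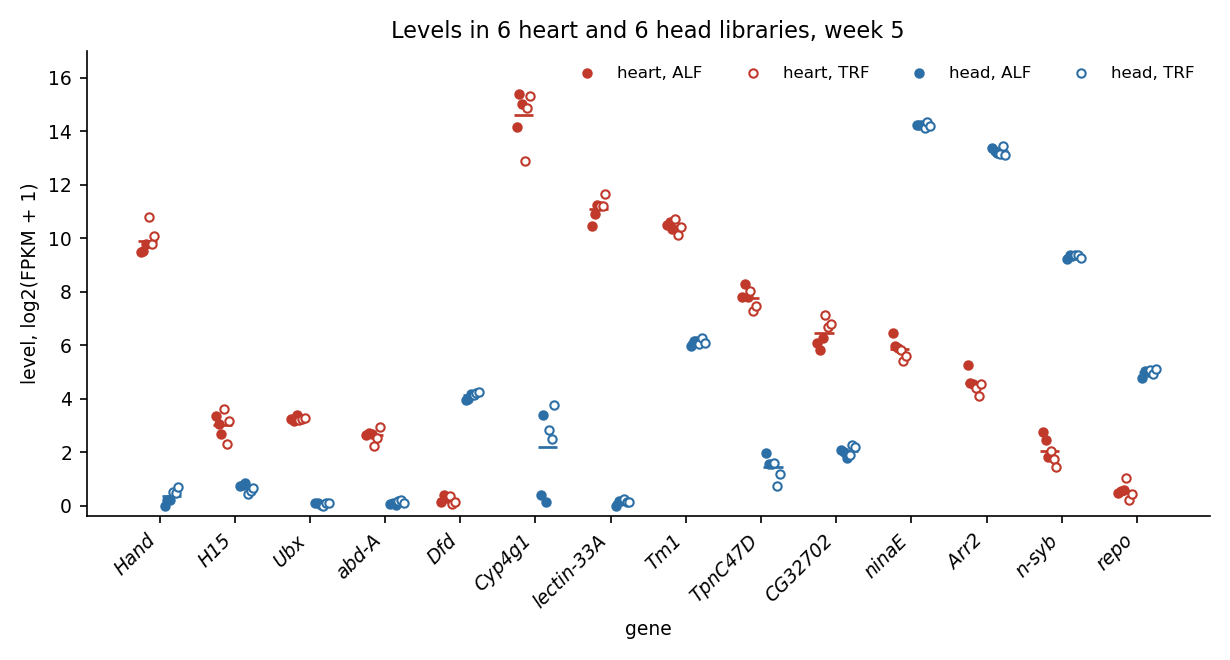
Levels of 14 genes on a log2(FPKM + 1) axis, 1 point a library (heart red, head blue; ALF filled, TRF open), with the mean of 6 as a line. For each gene the 6 heart points and the 6 head points do not overlap, and ninaE and Arr2 remain above 0 in heart.

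Among the 12 genes with the largest differences towards heart, Cyp4g1 stood first. Cyp4g1 (CG3972, X chromosome, 361090 to 363366, minus strand) is the cytochrome P450 of oenocytes that makes cuticular hydrocarbons. It was 7525 to 43271 FPKM in heart with a median of 31541 FPKM, and 0.111 to 12.6 FPKM in head with a median of 5.43 FPKM. It was the most abundant transcript in 5 of the 6 heart libraries, all but TRF ZT00, where Adh led. The difference was 12.43 ± 0.56 (adjusted p = 4.64e-07). In the periphery libraries Cyp4g1 was 8662 to 12832 FPKM. The C-type lectin gene lectin-33A was 1383 to 3191 FPKM in heart, at most 0.18 FPKM in head and 4.80 to 20.2 FPKM in the periphery (10.95 ± 0.13). Hand was the fifth of the 12. The others were CG30008, CG16904, CG7910, CG5399, CG13091, CG15531, CG9458, CG10097 and CG18609, with differences of 7.46 (CG18609) to 10.33 (CG30008). CG13091 is annotated as Sgp in RefSeq. The TRF ZT00 heart library was the lowest of the 6 for 8 of these 12 genes, while ALF ZT12 was the highest for 6. All 12 were higher in heart in 6 of 6 pairs, which was a condition for naming them.

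Among the 12 genes with the largest differences towards head, 6 were on the list of rhodopsins and phototransduction: Arr2 (-8.68 ± 0.15), ninaE, Arr1 (-8.30 ± 0.18), rtp (-8.11 ± 0.19), trp (-8.00 ± 0.14) and Rh3 (-7.93 ± 0.13). Pdh (-8.11 ± 0.30) encodes a photoreceptor dehydrogenase of the retinal cycle, and retinin (-7.98 ± 0.11) a protein of the corneal lens. Obp19d (-8.00 ± 0.14) is an odorant-binding protein of the antenna. CG11368, CG3088 and CG12158 completed the set at -8.10, -7.99 and -7.83. As head libraries lacking ninaE had been left out, the ranks of eye genes here are descriptions. All 12 were lower in heart in 6 of 6 pairs, which was a condition for naming them. The heart library ALF ZT00 was the highest of the 6 for 10 of the 12.

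Among cardiac transcription factors Hand stood far above the rest. Of 19 listed, 13 were tested, of which 8 were called higher and 3 lower, beside 24.2% and 53.3% of all genes. The list median was 1.13 beside -0.41 for all genes. tin, the NK homeobox factor required to form the heart, was low but separate: 1.34 to 5.12 FPKM in heart, median 2.70, and 0.082 to 0.351 FPKM in head (1.69 ± 0.20, adjusted p = 0.000101). H15, a T-box gene of heart cells, was 3.92 to 11.1 FPKM in heart and 0.345 to 0.795 FPKM in head (2.36 ± 0.20). Hand, tin and H15 were under 1 FPKM in every head library and passed the filter on low values only through heart. Their direction was thus largely fixed by the filter, and the 8 called higher are a description. tup (1.13 ± 0.17), an Islet-type factor, and ush (0.92 ± 0.10), a cofactor of GATA proteins, were also higher. The T-box gene mid, the paralogue of H15, went the other way, with 0.497 to 2.46 FPKM in heart and 3.05 to 4.79 FPKM in head (-1.10 ± 0.19). Mef2, the general muscle factor, was 10.8 to 17 FPKM in heart and 24.2 to 30.8 FPKM in head (-0.95 ± 0.10, also lower after rescaling at -0.45). lbl, a ladybird homeobox gene, was lower too (-1.17 ± 0.15). Doc2, Doc3, Him, lbe, eve and nau fell under the filter.

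Genes of the contractile apparatus were mostly higher in heart, with large differences between isoforms. Of 30 sarcomere genes tested, 20 were called higher and 5 lower, beside 24.2% and 53.3% of all genes. The list median was 0.91. Tm1 (tropomyosin 1, CG4898) was 1101 to 1679 FPKM in heart and 61.8 to 75.6 FPKM in head (4.34 ± 0.12, adjusted p = 2.85e-08). Mlc2, the regulatory myosin light chain, was 954 to 1812 FPKM against 114 to 147 FPKM (3.33 ± 0.14), and Mf (myofilin) 942 to 1791 against 227 to 267 FPKM (2.50 ± 0.13). Mhc, the single muscle myosin heavy chain gene, differed less, at 184 to 445 FPKM in heart and 121 to 181 FPKM in head (0.93 ± 0.19, adjusted p = 0.00228). The heart libraries lay above all head libraries for each of these 4 genes.

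Troponin C and actin genes differed by isoform. TpnC47D was 153 to 309 FPKM in heart and 0.681 to 2.92 FPKM in head, the largest difference of the list (6.33 ± 0.12, adjusted p = 7.37e-09). TpnC73F was 56.5 to 181 FPKM against 5.86 to 7.88 FPKM (3.60 ± 0.21). TpnC41C, which is known from flight and jump muscle, was 0.158 to 1.45 FPKM in heart and 3.91 to 6.77 FPKM in head (-1.88 ± 0.13). TpnC25D, at 95.8 to 224 FPKM in heart and 112 to 129 FPKM in head, was not called (adjusted p = 0.0987). Act57B, an actin of larval and heart muscle, was 986 to 2473 FPKM against 705 to 982 FPKM (0.88 ± 0.18). Act79B, an actin of adult tubular muscle, was 2.85 to 5.56 FPKM in heart and 25.0 to 38.5 FPKM in head (-2.83 ± 0.11). Act88F, the actin of flight muscle, was 0.698 to 1.77 FPKM in heart and 0.972 to 2.12 FPKM in head and was not called (adjusted p = 0.536). fln (flightin), the other flight muscle marker, was 0.262 to 0.934 FPKM in heart and 9.17 to 11.9 FPKM in head (-2.91 ± 0.14). The 4 flight muscle markers were at or under 1.77 FPKM in every heart library, and of the 3 tested 2 were called lower and 0 higher. Actin genes are close paralogues, and how reads shared between them were counted is not given in the sources used here.

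Ion channels known from heart rhythm were lower in the heart libraries than in head. Of all genes, 53.3% were called lower, and 36.6% after rescaling. Of 16 tested on the list of cardiac channels and calcium handling, 14 were called lower and 1 higher. The list median was -2.36, and 12 were lower after rescaling. The exception was Ca-P60A, the SERCA calcium pump of the sarcoplasmic reticulum, at 170 to 292 FPKM in heart and 116 to 193 FPKM in head (0.50 ± 0.14, adjusted p = 0.0102). KCNQ, a repolarising potassium channel, was 1.98 to 9.04 FPKM in heart and 16.5 to 22.0 FPKM in head (-2.28 ± 0.26). Ca-alpha1D, the L-type calcium channel, was 1.64 to 3.71 against 17.3 to 34.4 FPKM (-2.77 ± 0.17). Ih, the pacemaker-type channel, was 16.7 to 26.7 against 54.8 to 73.3 FPKM (-1.42 ± 0.11), and CASK, a membrane scaffold, 9.01 to 10.9 against 52.0 to 82.5 FPKM (-2.63 ± 0.11). These genes also act in neurons, so a lower value in heart than in head does not describe their level per muscle cell: fewer cells of a type and less RNA per cell cannot be told apart in bulk libraries. The inward rectifier Irk2 was 66.8 FPKM in heart ALF ZT00, the library highest in Uro, and 0.749 to 9.55 FPKM in the other heart libraries, against 65.3 to 88.4 FPKM in head (-3.60 ± 0.72).

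Of 19 matrix genes tested, 9 were called higher, 3 lower and 7 not called, with a median of 0.22. Of all genes, 24.2% were called higher and 53.3% lower. In 3 of the 19 every heart library lay above every head library, near the 17.1% of all genes. In 3 every heart library lay below, beside 43.7% of all genes. Without the ALF ZT00 pair 5 were called lower. The largest was CG6232, annotated as loh (lonely heart), an ADAMTS-like protein that is known to anchor the heart's collagen matrix, at 19.5 to 34.6 FPKM in heart and 2.84 to 4.65 FPKM in head (2.50 ± 0.15, adjusted p = 2.02e-06). BM-40-SPARC, a collagen-binding protein, was 386 to 634 against 318 to 399 FPKM (0.48 ± 0.12). The laminin chain genes LanA (0.81 ± 0.15), LanB1 (0.56 ± 0.15), LanB2 (0.63 ± 0.17) and wb (1.34 ± 0.29) were all called higher. The collagen IV genes Cg25C (0.22 ± 0.16, adjusted p = 0.245) and vkg (0.20 ± 0.15, adjusted p = 0.241) were not called, although both were called higher after rescaling. The metalloproteinase Mmp2 was 2.15 to 3.59 FPKM in heart and 26.7 to 28.6 FPKM in head (-2.91 ± 0.10), and its inhibitor Timp 135 to 182 against 99.3 to 127 FPKM (0.48 ± 0.10). prc, which encodes the heart collagen pericardin, was at most 0.357 FPKM in heart and 0.16 FPKM in head and was not tested.

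Genes of lumen formation and septate junctions were mostly lower in heart. Of 18 tested, 15 were called lower and 2 higher, beside 53.3% and 24.2% of all genes. The list median was -1.58. NetA, a netrin guidance cue, was 17.2 to 46.1 FPKM in heart and 1.85 to 3.3 FPKM in head (3.24 ± 0.17, adjusted p = 1.01e-06), while its paralogue NetB was 0.395 to 0.808 against 4.09 to 8.89 FPKM (-2.09 ± 0.15). loco, a regulator of G protein signalling, was higher at 0.69 ± 0.14. The cue sli (slit), known for opening the cardiac lumen in the embryo, was 1.11 to 2.54 FPKM in heart and 12.1 to 21.3 FPKM in head (-2.68 ± 0.14). The septate junction gene Lac was 4.86 to 17 against 68.9 to 83.3 FPKM (-3.13 ± 0.23), and cora 26.5 to 41.9 against 86.4 to 104 FPKM (-1.39 ± 0.11).

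Genes of nephrocytes were called in both directions. Of 9 tested on the list of pericardial nephrocytes, 5 were called higher and 2 lower, beside 24.2% and 53.3% of all genes. The list median was 0.74. CG32702, annotated as Cubn, the cubilin scavenger receptor, was 55.3 to 139 FPKM in heart and 2.40 to 3.75 FPKM in head (4.43 ± 0.18, adjusted p = 2.41e-07). Mec2, a podocin-like gene, was 127 to 365 against 14.9 to 37.6 FPKM (3.06 ± 0.22), and the lipophorin receptor LpR2 142 to 267 against 32.6 to 40.3 FPKM (2.31 ± 0.12). sns, which builds the slit diaphragm, was 10.4 to 27.7 against 5.53 to 9.44 FPKM (0.98 ± 0.16). rst, another adhesion gene of the list, was lower, at 0.203 to 0.948 FPKM in heart and 4.77 to 7.56 FPKM in head (-2.27 ± 0.16), and so was mgl, the megalin-type uptake receptor (-3.31 ± 0.31). rst is also known to act in the developing eye.

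Hemocyte genes leaned towards heart. Of 10 tested, 8 were called higher and 0 lower, beside 24.2% and 53.3% of all genes. The list median was 1.21, and 10 were higher after rescaling. He (Hemese), a hemocyte surface protein, was 7.01 to 13.1 FPKM in heart and 0.630 to 2.04 FPKM in head (2.37 ± 0.18, adjusted p = 9.33e-06). proPO-A1, the prophenoloxidase of crystal cells, was 133 to 430 against 22.6 to 63.6 FPKM (2.54 ± 0.36), and proPO45 117 to 300 against 29.5 to 74.9 FPKM (1.79 ± 0.32). srp, the GATA factor of blood and fat body, was 59.0 to 85.1 against 30.5 to 41.0 FPKM (1.08 ± 0.10), and the scavenger receptor crq 105 to 148 against 73.0 to 90.5 FPKM (0.55 ± 0.10). Groups did not overlap for 7 of the 10, beside 17.1% of all genes with every heart library above every head library.

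Fat body genes did not move together. Of 7 tested, 1 was called higher and 4 lower, with a median of -0.80, beside 24.2% higher and 53.3% lower of all genes. Lsp2, a storage protein, was 2.01 to 34.9 FPKM in heart and 77.5 to 977 FPKM in head (-4.27 ± 0.67, adjusted p = 0.000537). Ilp6, an insulin-like peptide of fat body, was 20 to 32.5 against 37.4 to 47.5 FPKM (-0.80 ± 0.11), and the lipocalin NLaz 75.5 to 176 against 43.5 to 56.9 FPKM (1.11 ± 0.16). Rfabg, annotated as apolpp, the apolipophorin precursor, was 117 to 400 FPKM in heart and 82.9 to 334 FPKM in head and was not called (adjusted p = 0.317). Tracheal markers were lower in heart in 4 of 4 cases, with trh at 0.201 to 0.661 FPKM in heart and 4.83 to 5.75 FPKM in head (-2.14 ± 0.14). trh passed the filter on low values only through head, which largely fixed its direction. The 4 tracheal markers summed to 4.26 to 8.94 FPKM in heart, so their count is a description.

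Testis and accessory gland markers, which belong to neither tissue, were called higher in heart. Of 14 testis genes tested, 11 were called higher and 2 lower, with a median of 3.24. The sperm gene Mst87F was 16.5 to 142 FPKM in heart, highest in ALF ZT18, and 0 to 0.664 FPKM in head (5.05 ± 0.40, adjusted p = 9.99e-06). Mst84Da was 11.5 to 81.7 FPKM in heart and listed at 0 in all 6 head libraries. Of 12 accessory gland genes tested, 12 were called higher, with a median of 3.25, beside 24.2% of all genes. Genes of both lists at or near 0 FPKM in head could pass the filter on low values only through heart. The filter thus largely fixed the direction of such genes, and their counts are descriptions. Acp95EF was 15.9 to 168 FPKM in heart, highest in TRF ZT12, and 1.29 to 4.60 FPKM in head (3.28 ± 0.34). Acp70A, the sex peptide, was 5.40 to 48.6 FPKM in heart and listed at 0 in head. With any one pair left out, 11 testis genes and 11 to 13 accessory gland genes were called higher. The trypsin gene alphaTry was 4.05 to 29.9 FPKM against at most 0.239 FPKM (3.40 ± 0.30). Of 11 gut genes tested, 6 were called higher and 2 lower, beside 24.2% and 53.3% of all genes. The amylase gene Amy-p was lower, at 14.5 to 38.0 FPKM in heart and 60.9 to 219 FPKM in head (-2.05 ± 0.30). Mst, Acp, trypsin and amylase genes come in clusters of similar copies, between which reads can be split. The part of these organs' transcripts in the other heart differences was not tested.

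**Figure D3:**
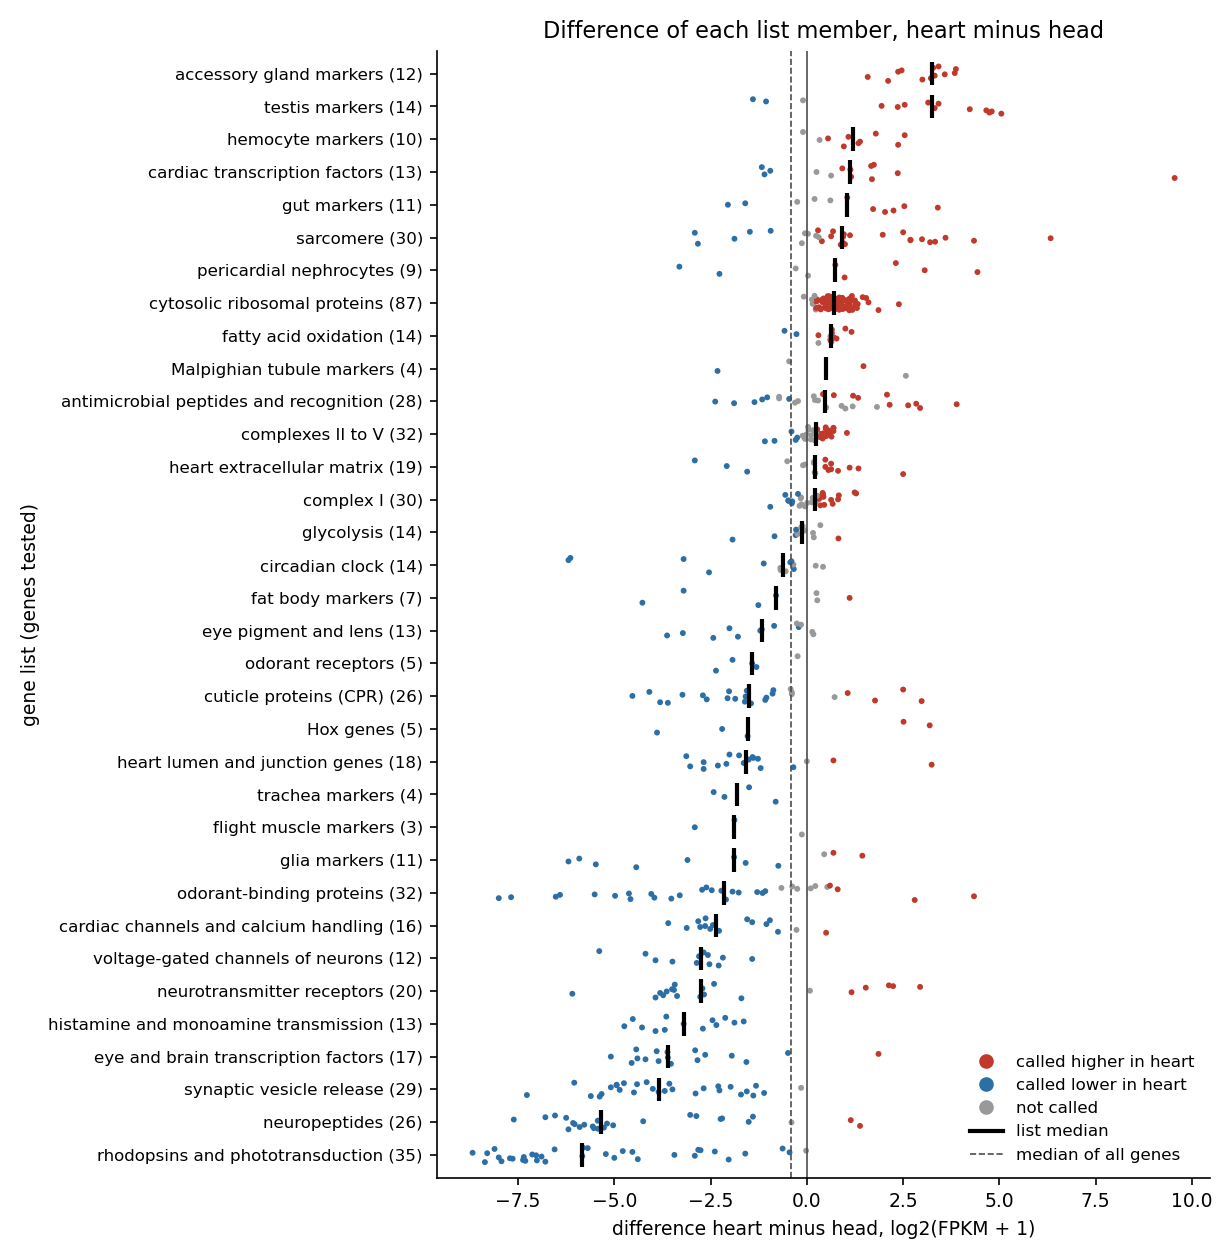
Difference in log2(FPKM + 1), heart minus head, of every tested member of each gene list, 1 point a gene (red called higher in heart, blue lower, grey not called), with the list median as a black bar and the median of all genes (-0.41) as a dashed line. Medians run from -5.83 for phototransduction to 3.25 for accessory gland markers.

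Genes of the visual cascade were far lower in heart. Of 35 genes on the list of rhodopsins and phototransduction, 34 were called lower in heart and 0 higher, with a median of -5.83, and 34 had every heart library below every head library, beside 43.7% of all genes. ninaE is among the 35, and head libraries lacking it had been left out, so these counts are descriptions. Arr2, the major arrestin that ends rhodopsin signalling, was 8742 to 11029 FPKM in head and 16 to 36.9 FPKM in heart. trp, the light-gated channel, was 1039 to 1263 FPKM in head and 2.55 to 5.41 FPKM in heart. Rh3, the ultraviolet rhodopsin of inner photoreceptors, was 1100 to 1404 against 3.12 to 6.81 FPKM, and Ggamma30A, a subunit of the visual G protein, 2002 to 2373 against 5.91 to 19.6 FPKM (-7.71 ± 0.21). norpA, the phospholipase C of the cascade, was 92.1 to 182 against 1.85 to 3.96 FPKM (-5.0 ± 0.19). laza, a lipid phosphatase, was the gene not called, at 19.6 to 40.4 FPKM in heart and 19 to 42.1 FPKM in head (adjusted p = 0.938).

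Most abundant eye genes were nevertheless detected in heart, at under 1% of their head level. Over the 23 genes of this list with a head median of at least 100 FPKM, the median level in heart was 0.48% of that in head, and 18 of the 23 were under 1%. For ninaE the heart median was 0.3% of the head median, for Arr2 0.236%, for Arr1 0.272%, for trp 0.293% and for Rh3 0.323%. The same heart library, ALF ZT00, was highest for all 5 of these genes. Of 7 neuropeptide genes above the same head level, 6 were under 1%, with a median of 0.518%. Other neural genes were less uniform: 5 synaptic genes ran from 0.439% (n-syb) to 47.2% (Rop) with a median of 7.08%, and 4 glial genes from 0.562% (Eaat2) to 33% (Eaat1) with a median of 18.6%. Where these transcripts in the heart libraries came from was not tested.

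Pigment and lens genes differed less. Of 13 tested, 9 were called lower and 0 higher, beside 53.3% and 24.2% of all genes. The list median was -1.17. se, an enzyme of drosopterin synthesis, was 20.7 to 44 FPKM in head and 0.940 to 3.62 FPKM in heart (-3.22 ± 0.22). bw, a pigment precursor transporter, was 22.7 to 33 against 0.927 to 1.71 FPKM (-3.63 ± 0.15). g, a subunit of the AP-3 sorting complex, was 24.3 to 31.9 against 5.52 to 7.61 FPKM (-2.01 ± 0.08). Pu, the GTP cyclohydrolase that starts pteridine synthesis, was 17 to 40.9 FPKM in heart and 50.8 to 90.7 FPKM in head (-1.21 ± 0.23).

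Transcription factors of eye and brain were lower in heart in 16 of 17 cases, with a median of -3.61, beside 53.3% lower of all genes. Pph13, a photoreceptor homeobox factor, was 39.8 to 54.2 FPKM in head and 0.108 to 0.685 FPKM in heart (-5.09 ± 0.088). toy, a Pax6 gene, was 24.7 to 32.2 against 0.044 to 0.479 FPKM (-4.55 ± 0.091), and gl (glass) 24 to 29.5 against 0.084 to 0.553 FPKM (-4.40 ± 0.11). The exception was pros (prospero), at 19.3 to 64.8 FPKM in heart, highest in TRF ZT00, and 5.43 to 8.86 FPKM in head (1.86 ± 0.17, adjusted p = 2.5e-05). With the longest transcript of pros in place of the most abundant, the difference was -0.05 (adjusted p = 0.806), so its direction rests on the transcript used. Pph13, toy and gl were under 1 FPKM in every heart library and passed the filter on low values only through head. The filter thus largely fixed their direction, and the count of 16 is a description.

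Synaptic genes were lower in heart in nearly all cases. Of 29 genes of synaptic vesicle release, 28 were called lower, with a median of -3.85, beside 53.3% lower of all genes. n-syb, the neuronal synaptobrevin, was 601 to 662 FPKM in head and 1.72 to 5.79 FPKM in heart (-7.27 ± 0.18, adjusted p = 2.05e-08). cpx (complexin) was 256 to 327 against 14.4 to 23.4 FPKM (-3.85 ± 0.12). Rop, which also serves general secretion, was 111 to 131 against 45.3 to 63.3 FPKM (-1.11 ± 0.11). Nsf2 was not called, at 21.7 to 30 FPKM in heart and 26.0 to 30.7 FPKM in head (adjusted p = 0.0833). stnA and stnB share a transcript in the table, so their values are the same and count as 1 measurement. All 12 voltage-gated channels tested were lower, from Shal (-1.42 ± 0.14) to qvr (-5.39 ± 0.11), beside 53.3% of all genes. para, the neuronal sodium channel, was 3.23 to 6.45 FPKM in head and at most 0.141 FPKM in heart (-2.29 ± 0.15). para passed the filter on low values only through head, which largely fixed its direction. The 14 channels listed summed to 12.6 to 21.7 FPKM in heart, so their count is a description. All 13 genes of histamine and monoamine transmission were lower. Vmat, the vesicular monoamine transporter, was 54.8 to 80.7 FPKM in head and 1.62 to 3.58 FPKM in heart (-4.52 ± 0.17), and t (tan), which recycles histamine in photoreceptors, 126 to 266 against 3.28 to 13.6 FPKM (-4.74 ± 0.16).

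Neurotransmitter receptor genes were called in both directions. Of 20 tested, 14 were called lower and 5 higher, beside 53.3% and 24.2% of all genes. The list median was -2.74. The 5 higher were 4 glutamate receptor subunits of the neuromuscular junction and nAcRbeta-21C. GluRIIC was 13.5 to 24.8 FPKM in heart and 1.61 to 1.98 FPKM in head (2.94 ± 0.13, adjusted p = 4.86e-07). KaiRIA, a name of the subunit GluRIID, was 5.64 to 15.6 against 1.04 to 1.78 FPKM (2.24 ± 0.20), GluRIIE differed by 2.13 ± 0.20, and GluRIIA was 11.7 to 26.8 against 4.78 to 7.11 FPKM (1.53 ± 0.17). nAcRbeta-21C, a subunit of the nicotinic acetylcholine receptor family, was 94.9 to 148 against 31.7 to 74.2 FPKM (1.16 ± 0.18). Among the 14 lower were nAcRbeta-64B, a neuronal acetylcholine receptor subunit, at 84.0 to 105 FPKM in head and 0.185 to 0.830 FPKM in heart (-6.09 ± 0.11) and the GABA-A-type subunit Lcch3, at -3.45 ± 0.11.

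Of 26 neuropeptide genes, 23 were called lower in heart and 2 higher, beside 53.3% and 24.2% of all genes. The list median was -5.34. Ilp2, the insulin-like peptide of brain median neurosecretory cells, was 153 to 194 FPKM in head and 0.295 to 1.38 FPKM in heart (-6.79 ± 0.11). Dsk, made in the same cells, was 150 to 242 against 0.578 to 2.09 FPKM (-6.54 ± 0.18), and Pdf, the peptide of clock neurons, 130 to 159 against 0.387 to 1.9 FPKM (-6.19 ± 0.16). Nplp2 was higher in heart, at 6120 to 12576 FPKM against 2698 to 5657 FPKM (1.14 ± 0.17, adjusted p = 0.000424). itp, an ion transport peptide, was 35.5 to 272 FPKM in heart, highest in TRF ZT00, and 22.8 to 29.4 FPKM in head (1.38 ± 0.37, adjusted p = 0.00936).

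Of 11 glial markers, 8 were called lower and 2 higher, beside 53.3% and 24.2% of all genes. The list median was -1.89. repo, the homeobox factor of glia, was 26.1 to 33.4 FPKM in head and 0.169 to 1.03 FPKM in heart (-4.43 ± 0.10). Gs2, a glutamine synthetase, was 820 to 895 against 55.8 to 158 FPKM (-3.10 ± 0.19). Indy, a citrate transporter that is also made in fat body, was 201 to 322 FPKM in heart and 78.4 to 126 FPKM in head (1.44 ± 0.17).

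Chemosensory and cuticle genes were called in both directions, more often lower, as were all genes (53.3% lower). Of 32 odorant-binding protein genes tested, 22 were called lower and 4 higher, with a median of -2.16. Obp44a was 1621 to 4504 FPKM in head and 7.03 to 22.3 FPKM in heart (-7.68 ± 0.30). Obp18a was 248 to 592 FPKM in heart against 54.1 to 70.1 FPKM (2.80 ± 0.17), and Obp51a was 6.96 to 53.4 FPKM in heart and listed at 0 in head. Orco, the coreceptor of olfactory neurons, was 2.21 to 21.7 FPKM in head and 0.059 to 0.582 FPKM in heart (-2.36 ± 0.30). Of 60 odorant receptor genes 5 were tested, of which 4 were called lower and 0 higher. Orco passed the filter on low values only through head, and Obp51a only through heart. The filter thus largely fixed their direction, and the receptor count is a description. Of 26 cuticle protein genes of the CPR family, 18 were called lower and 4 higher, with a median of -1.50. Cpr65Au was 131 to 310 FPKM in head and 5.70 to 11.4 FPKM in heart (-4.53 ± 0.18), while Cpr49Ab was 8.19 to 17.9 FPKM in heart and 0.1 to 1.39 FPKM in head (2.98 ± 0.17).

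Ribosomal protein genes took a larger share of the heart libraries. They made up 25.0% to 27.5% of summed FPKM in heart and 16.4% to 18.4% in head. Of 87 tested, 80 were called higher in heart and 0 lower, beside 24.2% and 53.3% of all genes. The list median was 0.71, and 86 were higher after rescaling. In 74 of the 87 the 6 heart libraries lay above the 6 head libraries, but in the 2 other heart and 7 other head libraries of week 5 this held for 13 of the 87, beside 15.9% of all genes. RpL41 was 4832 to 5995 FPKM in heart and 1934 to 2634 FPKM in head (1.27 ± 0.085, adjusted p = 4.05e-06). RpS26 was 3577 to 4087 against 2137 to 2450 FPKM (0.72 ± 0.072). The largest difference was that of RpL38, at 3023 to 3533 against 534 to 718 FPKM (2.39 ± 0.089). RpS5b, a copy known from the germ line, was not called, at 1.3 to 5.6 FPKM in heart and 1.95 to 3.00 FPKM in head (adjusted p = 0.716).

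Respiratory chain genes lay near equality on the FPKM scale and higher in heart after rescaling. Of 30 genes of complex I, 13 were called higher and 7 lower (median 0.20), and after rescaling 24 were higher and 1 lower. Of 32 genes of complexes II to V, 16 were called higher and 5 lower (median 0.25), and after rescaling 28 were higher and 2 lower. Of all genes, 24.2% were called higher and 53.3% lower, and after rescaling 39.8% and 36.6%. In the other libraries of week 5, 1 gene of complex I and 1 of complexes II to V had the heart libraries above the heads, against 8 and 13 in the pairs. There 11 genes of complex I and 6 of complexes II to V had the heart libraries below the heads, against 6 and 4 in the pairs. Of all genes, 15.9% were above and 33.5% below in those other libraries. ATPsyn-beta, the catalytic subunit of ATP synthase, was 1029 to 1449 FPKM in heart and 643 to 873 FPKM in head (0.69 ± 0.09, adjusted p = 0.000199). CoVIb, a cytochrome oxidase subunit, was 482 to 625 against 417 to 482 FPKM (0.34 ± 0.072). ND75 of complex I (-0.95 ± 0.069) and the succinate dehydrogenase subunits SdhA (-1.09 ± 0.11) and SdhB (-0.84 ± 0.078) were lower on both scales, SdhA at 67.9 to 118 FPKM in heart and 172 to 195 FPKM in head.

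Of 14 genes of fatty acid oxidation, 9 were called higher and 2 lower (median 0.63), and 13 were higher and 0 lower after rescaling. Without ALF ZT12 the number lower was 1. colt, the mitochondrial carnitine carrier, was 144 to 247 FPKM in heart and 75.1 to 112 FPKM in head (1.0 ± 0.13, adjusted p = 0.000197). yip2, a thiolase, was 174 to 494 against 143 to 327 FPKM (0.77 ± 0.22) and scu, a hydroxyacyl dehydrogenase, 144 to 356 against 128 to 208 FPKM (0.70 ± 0.21). Of 14 glycolysis genes, 1 was called higher and 4 lower (median -0.13), and 10 were higher and 2 lower after rescaling. Of all genes, 24.2% were called higher and 53.3% lower, and after rescaling 39.8% and 36.6%. The hexokinases went opposite ways on both scales. Hex-A was 27.5 to 49.3 FPKM in heart and 122 to 181 FPKM in head (-1.93 ± 0.14), while Hex-C was 171 to 326 against 90.7 to 171 FPKM (0.82 ± 0.10). Pfk, the phosphofructokinase, was 43.1 to 52.7 against 75.0 to 97.3 FPKM (-0.84 ± 0.086).

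**Figure D4:**
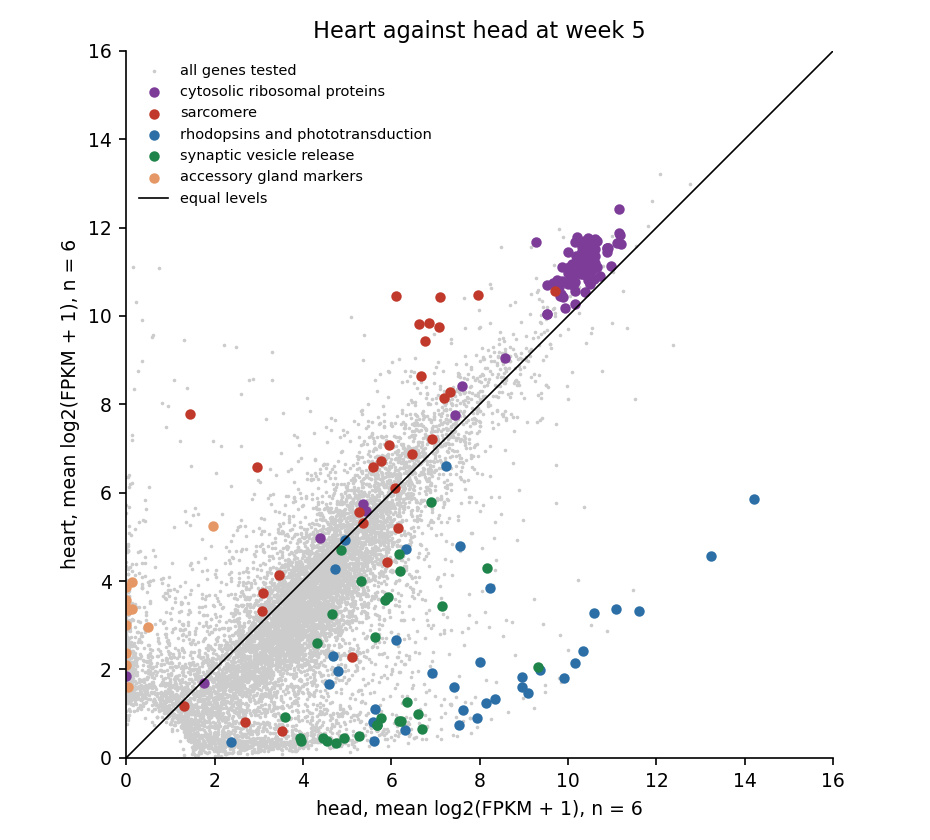
Mean log2(FPKM + 1) of each of the 10516 genes tested in 6 heart libraries (vertical) and 6 head libraries (horizontal), with 5 gene lists coloured and a line of equal levels. Most ribosomal protein genes lie together above the line at high levels, most phototransduction genes far below it, and accessory gland markers near the left edge.

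Levels of immune genes were spread widely among the libraries of each tissue. Of 28 genes of antimicrobial peptides and recognition, 10 were called higher and 6 lower, beside 24.2% and 53.3% of all genes. The list median was 0.46. The number lower was 2 without ALF ZT18, 2 without TRF ZT18 and 3 without ALF ZT12. The cecropin gene CecA1 was 60.5 to 965 FPKM in heart and 9.16 to 126 FPKM in head (2.63 ± 0.55, adjusted p = 0.00276), and AttB, an attacin, 165 to 1191 against 12.6 to 237 FPKM (2.94 ± 0.65). Dro (drosocin) went the other way, at 34.1 to 1010 FPKM in heart and 507 to 4115 FPKM in head (-1.89 ± 0.63, adjusted p = 0.0242), and so did Mtk (metchnikowin, -1.36 ± 0.53, adjusted p = 0.0469), but neither passed after rescaling. IM4, an immune-induced peptide, was 685 to 1177 against 1496 to 2732 FPKM (-1.16 ± 0.20) and stayed lower after rescaling. The cecropin and attacin genes are close copies of each other, between which reads can be split.

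Of 14 clock genes, 8 were called lower in heart and 0 higher, with a median of -0.62, and 5 were lower and 2 higher after rescaling. The share lower is near the 53.3% of all genes. The clock is a feedback loop in which Clk and cyc switch on per, tim, vri and Pdp1. per was lower in heart, at 3.20 to 12.3 FPKM against 19.1 to 114 FPKM in head (-2.54 ± 0.40, adjusted p = 0.000544). tim was 24.4 to 162 FPKM in heart and 22.7 to 314 FPKM in head and was not called (-0.55 ± 0.58, adjusted p = 0.403). In heart tim was lowest at ZT00 (24.4 FPKM in ALF, 42.7 in TRF), 92.5 and 76.2 FPKM at ZT12, and 155 and 162 FPKM at ZT18. Among the same 3 times in head it was lowest at ZT12 (22.7 FPKM in ALF, 43.0 in TRF), against 118 and 245 FPKM at ZT00 and 314 and 209 FPKM at ZT18. per and vri were lowest in head at ZT12 too. At ZT15, outside the pairs, tim in head was 62.8 FPKM in ALF and 10.2 FPKM in TRF. That ALF library held only 2.1 M reads. The labels offer no check of the ZT given to each head library, and an exchange among them was not tested, so values by ZT hold only as labelled. As labelled, the mean difference was -2.36 at ZT00, 1.39 at ZT12 and -0.69 at ZT18. vri was 40.9 to 53.4 FPKM over the 6 heart libraries and 24.7 to 228 FPKM in head, a range of 1.3-fold against 9.23-fold. Clk was 2.55 and 2.87 FPKM in heart at ZT12 and 14.1 and 13.6 FPKM in head. cyc, dco, sgg and jet varied by at most 1.5-fold in either tissue, and dco, the casein kinase of the clock, was 12.5 to 16.6 against 30.5 to 34.4 FPKM (-1.12 ± 0.08). cyc, sgg and jet were called lower at -0.34, -0.43 and -0.40, and none of these 3 kept its call after rescaling.

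**Figure D5:**
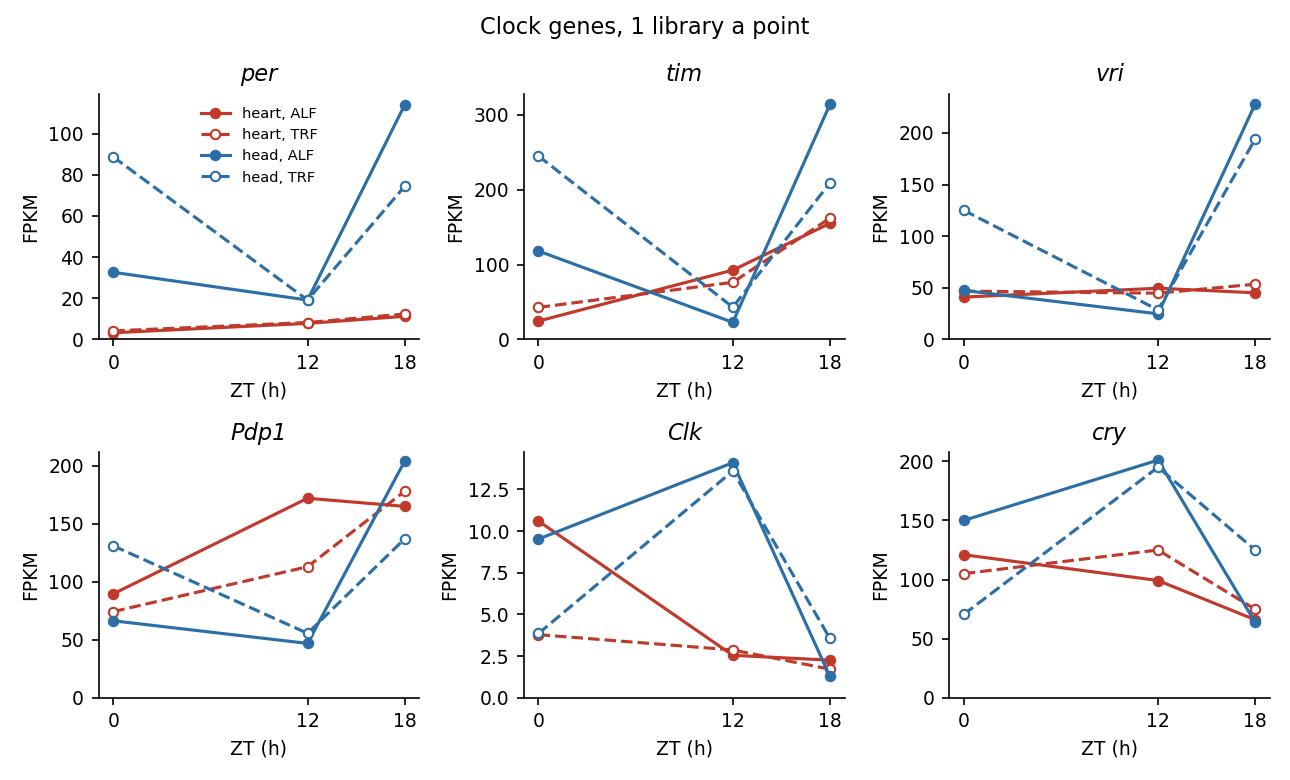
FPKM of 6 clock genes against ZT (hours), 1 library a point, heart in red and head in blue, ALF solid and TRF dashed. Among these 3 times tim in head is lowest at ZT12 in both feeding types, at 22.7 and 43.0 FPKM, where the heart libraries stand at 92.5 and 76.2 FPKM.

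Differences between tissues were then compared between ZTs and between feeding types. For ZT, 0 of 10516 genes passed limma's moderated F test at an adjusted p of 0.05, and 854 had an unadjusted p under 0.05 (8.12%). tim had the fifth smallest p (0.000607, adjusted p = 0.566), vri an unadjusted p of 0.00213, per 0.00461 and Clk 0.00583. The 3 smallest were CG42329, Odc2 and CG14069, all with an adjusted p of 0.566. CG42329 was 29.3 and 29.7 FPKM in head at ZT12 and 1.47 to 16.2 FPKM at the other times, with mean differences of -4.58 at ZT12, -1.76 at ZT00 and -0.76 at ZT18. Odc2, an ornithine decarboxylase gene, was 18.5 and 26.1 FPKM in heart at ZT00 and 3.99 to 8.18 FPKM at the other times. With 2 pairs a ZT and 3 residual degrees of freedom, these values are descriptions.

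For feeding, 0 of 10516 genes passed, with 353 at an unadjusted p under 0.05 (3.36%), and the smallest adjusted p was 0.986. The 3 with the smallest p were snoRNA:Psi28S-2444, CG30289 and Obp56h. CG30289 was 4.42 to 6.59 FPKM in ALF heart and 8.96 to 14.5 FPKM in TRF heart, against 3.91 to 4.45 FPKM in ALF head and 1.14 to 2.34 FPKM in TRF head. The difference between tissues was 0.37 in ALF and 2.09 in TRF (1.72 ± 0.35, unadjusted p = 0.00202, adjusted p = 0.986). No change of the tissue difference by feeding was detected with 3 pairs a feeding type, which does not show that there was none.

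The libraries of week 5 outside the 6 pairs were compared without a test. These were the 2 heart libraries of ZT06 and 7 head libraries of ZT03, ZT09, ZT15 and ZT21 with ninaE above 1000 FPKM. Head ALF ZT09 and ALF ZT15 were shallow, at 2.06 and 2.1 M reads, against 7.29 to 18.6 M in the other heads. ninaE in ALF ZT15 was 9856 FPKM, against 18349 to 24226 FPKM in the other heads. The counts below include both shallow libraries. Of the 1392 genes called higher by at least 1, 1088 (78.2%) had both heart libraries above all 7 head libraries, and 0 had them below. Of the 3177 called lower by at least 1, 2371 (74.6%) had both heart libraries below all 7, and 0 above. Over all genes tested, 15.9% had the heart libraries above and 33.5% below. Hand was 982 and 1062 FPKM in these heart libraries and at most 0.640 FPKM in these heads. ninaE, by which these heads were chosen, was 20.8 and 50.3 FPKM in the 2 heart libraries. Cyp4g1 was 30261 and 38151 FPKM in these heart libraries. In these heads it was 0.207 to 13.9 FPKM except for ALF ZT21, where it was 1779 FPKM.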

How the data were processed

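RNA was measured by unstranded sequencing of polyadenylated transcripts. The deposited table, made by the authors, holds FPKM of 29260 transcripts of 15240 genes in 72 libraries. Per the submitters' processing notes the tools were CASAVA 1.8.2, STAR 2.2.0c and HOMER with build dm3. Their roles and settings, and how reads shared by similar genes were counted, are not given in the sources used here. Reads per library were recovered from the steps between low values, 100% of which were whole reads within 0.05 reads.

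For each gene the transcript with the highest mean over the 12 libraries was used, and genes averaging under 1 FPKM over them were removed. limma 3.58.1 in R 4.3.3 was run on log2(FPKM + 1) with the pair (feeding type and ZT) as a block, two-sided, with Benjamini-Hochberg adjustment over all genes and a threshold of 0.05. The same values served tests of tissue by feeding and tissue by ZT. The code was tested on simulated data.

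The named genes were the 12 largest differences in each direction among called genes that changed the same way in 6 of 6 pairs. Added to these were up to 4 called members a direction in each of 34 lists by highest mean, and members with a key role. Other list members, such as TpnC47D, Uro, bw, norpA, para, sns, He and RpL38, were named after their values were seen. The comparison, lists and tests were chosen with earlier results of these data known. Alternatives were other pseudocounts, filters, transcripts, scalings, limma settings and sets of libraries, and leaving out each pair. Promoter motifs were not analysed here. Because reads carry no strand, a gene and an antisense partner cannot be told apart.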

Additional observations from a re-analysis of the deposited data

Results flagged for a closer look

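In 147 groups of 6 libraries (named genes and summed lists in one tissue), 10 held 1 library far from the other 5 by Dixon's criterion, and chance gives about 1 in 20. In heart ALF ZT00 the circadian and feeding gene to stood at 59.6 FPKM (0.489 to 3.93 FPKM in the others), summed genes of histamine and monoamine transmission at 63.6 FPKM (22.9 to 26.8 FPKM) and summed cuticle protein genes at 449 FPKM (96.7 to 142 FPKM). This is also the heart library with the highest level of 10 of the 12 head genes with the largest differences. In heart TRF ZT00 summed lumen and junction genes stood at 669 FPKM (500 to 550 FPKM) and summed eye and brain transcription factors at 81.2 FPKM (29.3 to 42.8 FPKM). In heart TRF ZT12 summed accessory gland markers stood at 561 FPKM (72.4 to 154 FPKM) and summed neurotransmitter receptors at 140 FPKM, below the 186 to 210 FPKM of the others. Among head libraries, to was lowest in TRF ZT18 at 17.2 FPKM (35.7 to 47.7 FPKM), summed lumen and junction genes in ALF ZT00 at 730 FPKM (771 to 794 FPKM), and summed glycolysis genes were highest in ALF ZT12 at 5705 FPKM (4169 to 4371 FPKM).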

How the results depend on the processing

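The number of genes called higher in heart was 2548 and became 3957 without a filter, 4210 after scaling by the median of ratios, 4275 after quantile scaling and 1626 with ZT06 included. The number called lower was 5602 and became 3505 after quantile scaling. Of genes higher by at least 1 there were 1392, against 725 with a pseudocount of 5, 787 with a filter at 5 FPKM, 2302 with the median of ratios, 668 with ZT06 included and 706 with all libraries of week 5 as labelled. Of genes lower by at least 1 there were 3177, against 1952 with a pseudocount of 5, 2092 with the median of ratios and 1948 with quantile scaling. Leaving out each pair in turn gave 7573 to 8207 calls, 2160 to 2618 higher, 5332 to 5589 lower, 1166 to 1466 higher by at least 1, 3112 to 3261 lower by at least 1, 0 for feeding and 0 to 3 for ZT. The 3 ZT calls came without TRF ZT00. Deviations of the 2 libraries of a pair correlated at -0.1 to 0.117, not above 0.1 in every pair, so pairing beyond the shared feeding type and ZT labels was not established. With no replicate block for the pair, 8223 genes were called, 2577 higher and 5646 lower. Among named genes the sign turned for pros with the longest transcript (-0.05), for sgg with the median of ratios (0.09), for cyc with the median of ratios (0.17) and quantiles (0.11), and for jet with the median of ratios (0.10) and quantiles (0.26). It also turned for 3 genes not called on the FPKM scale: Nsf2 (0.36 with the median of ratios, 0.29 with quantiles), RpS5b (0.62 with quantiles) and laza (0.50 with the median of ratios). The cause was not tested. Depth limits genes near 1 FPKM.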
